A study of Arabidopsis thaliana with 24 samples.

Results

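H3K9ac, acetylation of lysine 9 of histone H3, was compared between dark-grown seedlings of the pifq mutant and of wild type Arabidopsis thaliana, in all 17319 distinct peaks of the deposited table, which is every peak of the series. The peaks were assigned by the authors to 17672 genes in 19435 entries, and a peak entered for several genes was counted once here. All seedlings were of the Columbia-0 ecotype, either unmutated (wild type, wt) or carrying the mutations in PIF1, PIF3, PIF4 and PIF5 that are combined in the pifq line. A single mutant line stands for the genotype. Seedlings were 2 days old. Both groups had been stratified, given white light to start germination and then a far-red pulse, and kept in true darkness (D) until collection. Each group stands for 3 immunoprecipitated libraries of whole seedlings, 6 of the 24 samples of the series. Both genotypes were also profiled after a red light exposure of 1 h (R1h) and under white light without a dark phase (WLc), and these groups were used only to place the difference seen in darkness. The table holds 1 pooled value per peak and group, so no replicate error, test or p-value could be given for any difference described here, and depth is unknown. Values are signal per bp of peak, and differences are log2 ratios of pifq to wt after adding a pseudocount of 0.0717. A peak was counted as higher or lower where the ratio reached 1.5-fold. Whole seedlings were used, so a smaller share of cells with the mark and less of the mark per cell cannot be told apart.

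The phytochrome interacting factors (PIFs) are basic helix-loop-helix transcription factors that accumulate in darkness and keep seedlings in skotomorphogenesis, with a long hypocotyl, a closed apical hook and undeveloped plastids. Light-activated phytochromes bind them and trigger their degradation, and seedlings then turn to photomorphogenesis. The pifq mutant takes on much of the light-grown habit in darkness. H3K9ac is laid down by histone acetyltransferases, is removed by deacetylases, and is found mostly just downstream of the start of transcribed genes. PIF direct target genes (PIF-DTGs) are genes bound by PIFs whose transcript level is altered in dark-grown pifq, either lowered (PIF-induced) or raised (PIF-repressed). That list was drawn up by the same research group from binding and transcript data on this same genotype comparison, so its direction here is not independent of it.

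PIFs bind the G-box, CACGTG, and the PIF-binding E-box (PBE-box), CACATG or CATGTG. A stretch of 90 bases upstream of the gene is shown for 8 genes whose H3K9ac differed by at least 1.5-fold in darkness, to set the possible binding letters beside the values that follow. Letters come from the TAIR10.1 reference of RefSeq, are written 5′ to 3′ on the strand of the gene, and have G-boxes in capitals. They were picked because they hold a G-box. H3K9ac was lower in dark pifq at the first 5 genes and higher at the last 3.
PIL1: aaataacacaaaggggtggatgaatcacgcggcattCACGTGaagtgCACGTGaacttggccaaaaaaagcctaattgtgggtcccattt
AT5G05965: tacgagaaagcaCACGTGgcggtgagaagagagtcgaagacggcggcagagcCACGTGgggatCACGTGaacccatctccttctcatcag
HFR1: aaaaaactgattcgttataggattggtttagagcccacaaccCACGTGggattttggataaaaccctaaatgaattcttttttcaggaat
XTR7: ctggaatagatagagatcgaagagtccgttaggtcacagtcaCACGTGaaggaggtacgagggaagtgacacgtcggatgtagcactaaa
CKX5: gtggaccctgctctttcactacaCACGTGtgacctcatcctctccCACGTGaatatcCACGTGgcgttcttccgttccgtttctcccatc
RPT2: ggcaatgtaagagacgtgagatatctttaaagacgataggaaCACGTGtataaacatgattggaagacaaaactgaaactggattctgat
SIGE: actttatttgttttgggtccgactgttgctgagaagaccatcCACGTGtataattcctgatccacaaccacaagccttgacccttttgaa
AT1G60590: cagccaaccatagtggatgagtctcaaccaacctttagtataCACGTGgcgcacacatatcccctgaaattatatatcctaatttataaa
The PIL1 stretch lies at chr2:19299027-19299116 on the minus strand and begins 1258 bases upstream of the gene. The AT5G05965 stretch, at chr5:1792675-1792764 on the minus strand, begins 130 bases upstream and holds 3 G-boxes. The HFR1 stretch is at chr1:468833-468922, the XTR7 stretch at chr4:8140092-8140181 and the CKX5 stretch at chr1:28318991-28319080, all on the minus strand. Among the genes with more H3K9ac, the RPT2 stretch is at chr2:13006755-13006844, the SIGE stretch at chr5:8161499-8161588 and the AT1G60590 stretch at chr1:22318367-22318456, again on the minus strand. Up to 2000 bases upstream were searched, stopping at the next annotated gene. Among the stretches of the full 2000 bases, a G-box was present in 28.8% of 3716 genes of the table, 30.7% of 166 higher genes and 27.1% of 277 lower genes. In the PIF-DTGs it was present in 13 of 27 PIF-induced genes that were lower and 9 of 12 PIF-repressed genes that were higher. PIF-DTGs were selected for PIF binding at such letters, and a match is a description of the letters, not evidence of binding.

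As deposited, H3K9ac was close to equal in the 2 genotypes at most peaks. At 1.5-fold, the peaks that differed were about as often higher as lower in pifq. Higher peaks were more clearly in the majority at 2-fold and without the weakest peaks. With quantile scaling lower peaks were in the majority, 722 being higher and 931 lower. Lower peaks also outnumbered higher ones with a pseudocount of 0.5 of the median (329 higher, 337 lower) or of 1 (15 and 30). How the values were scaled is not stated, so a difference shared by most peaks could have been removed. Using the replicate libraries and a significance limit, the study called many more genes higher than lower in dark-grown pifq. The median log2 difference was -0.01 over all peaks, and 70.6% of peaks lay within 1.2-fold. In pifq D, 1011 peaks (5.84% of 17319) were higher and 916 (5.29%) were lower than in wt D. Leaving out the 25% of peaks with the lowest mean signal reduced these counts to 308 and 187. At a limit of 2-fold, 385 peaks (2.22%) were higher and 266 (1.54%) were lower. Taking each gene by its peak of highest mean signal, 803 genes (4.54% of 17672) were higher and 765 (4.33%) were lower, and these shares are the background for all gene lists below.

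**Figure D1:**
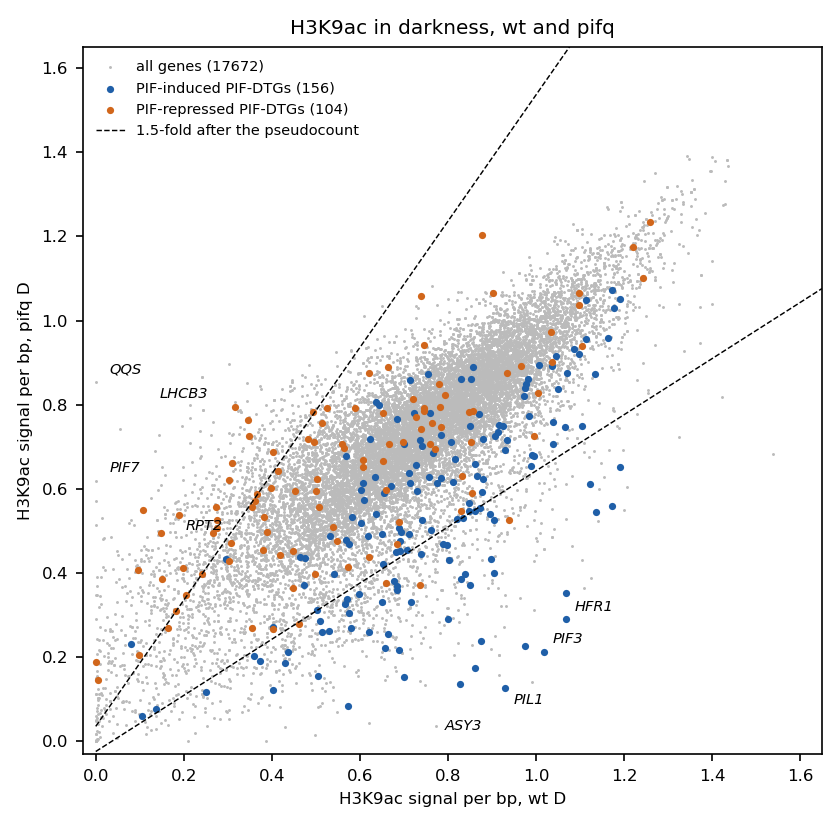
H3K9ac signal per bp in wt D (x axis) and pifq D (y axis), each gene by its strongest peak. Grey points are all 17672 genes, blue points the 156 PIF-induced and orange points the 104 PIF-repressed PIF-DTGs, and dashed lines mark 1.5-fold after the pseudocount. Of the blue points 140 of 156 have a lower value in pifq, and of the orange points 67 of 104 have a higher one.

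The higher and the lower peaks had different starting levels. Of the 1011 higher peaks, 832 were among the 10% of peaks with the lowest wt D signal, all below 0.362, and none was in the upper 50%. The lower peaks were found at every wt D level, with 94 in that lowest 10% and 63 in the highest 10%. The median signal of the higher peaks was 0.219 in wt D against 0.499 in pifq D, and that of the lower peaks was 0.650 and 0.314, against medians of 0.711 and 0.706 over all peaks. Because a peak is sorted by the same 2 values, these levels describe the peaks and are not a separate result. At 71 peaks wt D was at the lowest value its column takes, which is a fixed amount divided by peak length, and pifq D was at its own lowest value at 15. Of the 58 peaks at the lowest value in wt D alone, 50 were higher in pifq D, with a median pifq D signal of 0.128 over the 58. A fold change for such a peak depends on the pseudocount and is not given below.

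The 4 mutated loci were looked at first, as a check of the labels. PIF3 (AT1G09530) had signal of 1.02 in wt D against 0.214 in pifq D at its main peak, and 0.817 and 0.0588 at a second, shorter peak. At the main PIF3 peak, signal was also lower in pifq R1h (0.223) than in wt R1h (0.856), and in pifq WLc (0.170) than in wt WLc (0.865). The peak assigned to PIF1 (AT2G20180) and its neighbour AT2G20170 had 0.964 in wt D against 0.557 in pifq D, a log2 difference of -0.72, with -0.80 in R1h and -0.61 in WLc. PIF4 (AT2G43010) had more signal in pifq D (0.907) than in wt D (0.617), a log2 difference of 0.51, and the peak that PIF5 (AT3G59060) shares with other genes had 0.671 and 0.683. Lower H3K9ac at the mutated loci was thus seen for PIF3 and PIF1, in every light condition, and not for PIF4 and PIF5 in darkness.

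Relatives of the 4 PIFs also differed. PIF7 (AT5G61270), a further PIF that is more stable in light and acts in the shade response, was at the lowest value of the wt D column (0.000689) and reached 0.620 in pifq D. Its signal was 0.215 in wt R1h and 0.926 in pifq R1h, and 0.875 and 0.797 in WLc, so wt reached the level of pifq only in continuous light. ALC, which acts in fruit opening, had 0.0937 in wt D against 0.418 in pifq D (log2 difference 1.57), whereas SPT, a growth repressor of the same family, had 0.875 and 0.870. PIL1 and HFR1, described next, lay at the other end of the family, and in all 2 of 9 members with a peak were higher and 4 were lower, the mutated PIF1 and PIF3 among them.

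PIF-induced PIF-DTGs had less H3K9ac in pifq. Of 209 such genes 156 had a peak, of which 53 were lower and 1 was higher, beside 4.33% and 4.54% of all genes, and 16 had any difference above 0. The mutated PIF3 locus is 1 of the 53. Their median log2 difference was -0.41, with the middle 50% between -0.73 and -0.18, against -0.01 for all genes. Their median signal was 0.76 in wt D against 0.55 in pifq D, so the typical member kept a clear peak. The 10 members listed as targets of all 4 PIFs had a median of -0.94, with 6 lower, compared with -0.35 for 90 members of a single PIF, -0.52 for 37 members of a pair and -0.47 for 19 members of 3 PIFs.

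PIL1 (AT2G46970), a bHLH gene induced in darkness and shade, had the highest contrast in this class, with 0.929 in wt D against 0.128 in pifq D (log2 difference -2.33). Its wt signal was already down at 0.282 in R1h and was 0.168 in WLc, while pifq stayed between 0.0635 and 0.128. HFR1 (AT1G02340), whose product binds PIFs and holds them off DNA, had 1.07 in wt D against 0.290 in pifq D (-1.66). UPB1, a bHLH regulator of peroxidase genes in the root, had 0.828 and 0.137 (-2.11), and MPL1, a lipase gene, had 0.699 and 0.153 (-1.78). AT5G05965 had 0.574 in wt D against 0.0853 in pifq D (-2.04), and wt had 0.0445 in R1h. OLEO3, an oil body protein of seeds, had 0.974 and 0.227 (-1.81), and AT5G50175 had 0.862 and 0.175 (-1.92). In all of these wt D was the highest of the 6 group values.

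The PIF-induced genes that the study selected for further work, PIL1 among them, covered a wide range. They were picked there partly for their change in H3K9ac in these same libraries, so their direction is no separate evidence. XTR7, a xyloglucan endotransglucosylase of the growing wall, had 0.657 in wt D against 0.222 in pifq D (log2 difference -1.31). AT5G02580 had 0.851 and 0.372 (-1.06), and CKX5, a cytokinin oxidase, had 0.904 and 0.526 (-0.71). HB2, a homeodomain factor of the shade response, had 0.834 in wt D against 0.532 in pifq D (-0.59), just inside the limit of 1.5-fold. IAA19, an auxin response repressor, had 0.848 and 0.566 (-0.53), just outside it. The only PIF-induced member at or above the limit in the other direction was AT4G18650, with 0.0799 in wt D against 0.233 in pifq D. HK1, a histidine kinase, had the next difference above 0, with 0.296 and 0.433 (0.46).

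PIF-repressed PIF-DTGs showed the opposite difference, in fewer members. Of 129 genes 104 had a peak, 23 were higher and 4 were lower in pifq D, and 67 had a difference above 0. The median was 0.15, with the middle 50% between -0.11 and 0.56. The median signal of the class was 0.56 in wt D, below the 0.73 of all genes. Members listed with PIF5 among their regulators had 18 of the 23 higher calls, in 38 genes with a peak, and a median of 0.57. With PIF5 as the only listed regulator, 12 of 16 were higher and the median was 0.72. Among 72 members listed with PIF1, 9 were higher and 2 were lower. Among 18 members listed with PIF3, 0 were higher and 1 was lower, and among 28 listed with PIF4, 2 were higher and 3 were lower. The groups started from different levels. Median wt D signal was 0.41 with PIF5, 0.28 with PIF5 alone, 0.58 with PIF1, 0.71 with PIF3 and 0.67 with PIF4. Higher peaks lay mostly at low wt D signal, and the part of these levels in the counts was not tested. A gene with several regulators counts in each of these groups, and the groups were formed with the differences already known.

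AT1G60590, 1 of the 6 PIF-repressed genes that the study selected in the same way, was at the lowest value in wt D (0.000776) and had 0.190 in pifq D, 0.157 in wt R1h and 0.426 in pifq R1h. SIGE, a plastid sigma factor, had 0.00584 in wt D against 0.146 in pifq D, and wt (0.654) was above pifq (0.385) after red light. RPT2, a signal transducer of phototropism, had 0.188 and 0.538 (log2 difference 1.23) in darkness and nearly equal signal in R1h, 0.763 in wt and 0.747 in pifq. The other selected genes differed less. LNK3, a clock gene, had 0.559 and 0.706 (0.30), BOH2, a carotenoid hydroxylase, had 0.389 and 0.497 (0.30), and SPA1, a repressor of light signalling, had 0.419 and 0.443 (0.07). Outside the selected genes, AT5G62360 had 0.106 in wt D against 0.549 in pifq D (1.80), and YSL1, a metal chelate transporter, had 0.0965 and 0.407 (1.51). AT3G19850 had 0.147 and 0.495 (1.37), and AT5G02760 had 0.316 and 0.796 (1.16). The members with the opposite difference were PRXCB, a peroxidase, with 0.737 and 0.371 (-0.87), AKN2, a sulphate assimilation kinase, with 0.939 and 0.525 (-0.76), AT1G69790 (-0.71) and AT2G18980 (-0.60).

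**Figure D2:**
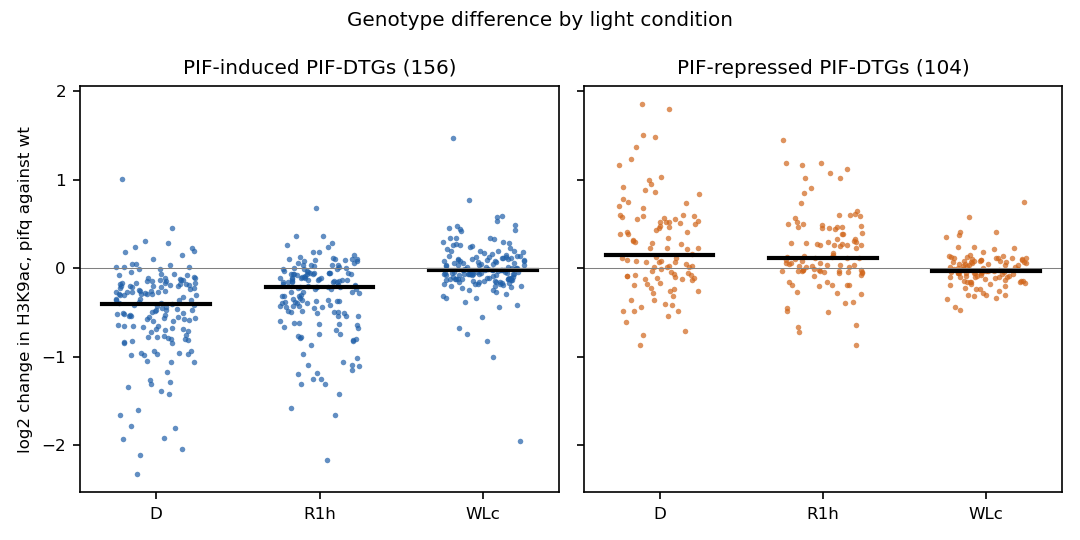
Log2 difference in H3K9ac between pifq and wt (y axis) in D, R1h and WLc (x axis) for the 156 PIF-induced (left) and 104 PIF-repressed (right) PIF-DTGs with a peak. Each point is a gene, spread sideways for legibility, and bars are medians, which go from -0.41 in D to -0.21 and -0.02 on the left and from 0.15 to 0.11 and -0.03 on the right.

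Photosynthesis genes held more H3K9ac in dark-grown pifq. Light-harvesting antenna genes, whose proteins bind chlorophyll, were higher in 13 of 21 members and lower in 0, with a median log2 difference of 0.84 and a median signal of 0.28 in wt D. LHCB1.1 had 0.0589 in wt D against 0.434 in pifq D (1.95), and LHCB1.4 had 0.151 and 0.652 (1.70). LHCB1.1, LHCB1.2 and LHCB1.3 are near-identical neighbouring copies, so short reads could be shared between them. The peak of LHCB3, which MRE11 and another gene share, had 0.245 and 0.787 (1.44), and that of LHCA4 had 0.158 and 0.540 (1.41). The members with a difference below 0 were LHCB4.3 (-0.41) and LHCB7 (-0.19). Photosystem and electron transport genes were above 0 in 32 of 32 members, with 14 higher and a median of 0.55, PSB28 (0.114 and 0.444) and PSBP-1 (0.316 and 0.806) having the largest differences. Without the 25% of peaks of lowest mean signal, 6 antenna genes were higher and the antenna median was 0.45, and without peaks entered for several genes 8 antenna and 6 photosystem genes were higher.

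The lists for carbon fixation and pigments followed with smaller medians. Calvin-Benson cycle genes were higher in 5 of 18 members and lower in 0, with a median of 0.54. Of these, FBA1, an aldolase, had 0.0322 in wt D against 0.266 in pifq D (1.70), and GAPA, a glyceraldehyde phosphate dehydrogenase, had 0.187 and 0.529 (1.22). Chlorophyll and tetrapyrrole synthesis genes were higher in 4 of 24, with a median of 0.18. GUN5, the magnesium chelatase subunit at the branch to chlorophyll, had 0.324 and 0.786 (1.12), and CRD1, which acts in ring closure, had 0.503 and 0.869 (0.71). Among plastid regulators 3 of 14 were higher, with a median of 0.25, and they were SIGE, CGA1, a GATA factor (0.0672 and 0.230), and GLK1, a regulator of chloroplast genes (0.494 and 0.782). Carotenoid genes had 1 of 16 higher, LUT5 (0.370 and 0.742), with a median of 0.12. PSY, which makes the first carotenoid, had 0.457 and 0.686 (0.52), below the limit. Nuclear genes for plastid ribosomal proteins, by contrast, had 0 of 17 higher, 0 lower and a median of 0.05, with 0.81 as the median signal in wt D.

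Light signalling genes differed at a few members only, 2 higher and 3 lower of 38, with a median of -0.06. BBX25, a B-box factor, had 0.0211 in wt D against 0.407 in pifq D (2.37), and RPT2 was the other higher member. BBX23 had 0.431 and 0.0339 (-2.25), BBX29 had 0.899 and 0.434 (-0.94), and FHL, which carries phytochrome A into the nucleus, had 0.873 and 0.554 (-0.60). BBX25 and BBX23 thus stood at opposite ends of a single family. PHYB, the main red light receptor of seedlings, had 1.11 and 0.779 (-0.47). HY5, COP1, CRY1, CRY2 and DET1 were all between -0.07 and 0.09. Of 23 clock genes 0 were higher and 1 was lower, RVE2, with 0.547 and 0.329 (-0.63). Flavonoid genes were higher in 3 of 10, with CHIL (0.0706 and 0.352, log2 difference 1.57) at the top.

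**Figure D3:**
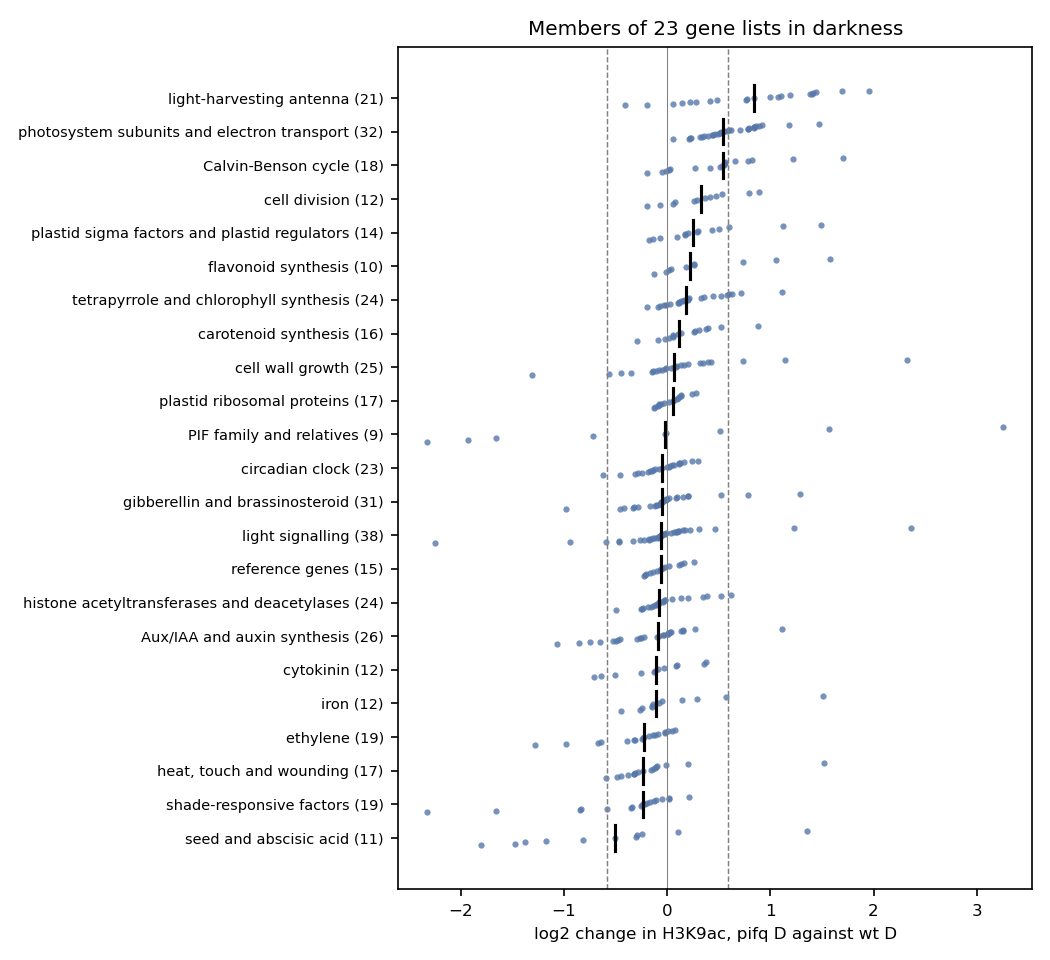
Log2 difference in H3K9ac, pifq D against wt D (x axis), for the members of 23 gene lists (y axis, number of members with a peak in parentheses), sorted by list median. Points are genes, black bars are medians and dashed lines mark 1.5-fold, and the light-harvesting antenna (median 0.84) and the seed and abscisic acid list (median -0.50) are at the ends.

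Several growth and hormone lists had medians below 0, as did the heat, touch and wounding list. Shade-responsive factors were higher in 0 and lower in 5 of 19, with a median of -0.24, and beside PIL1, HFR1 and HB2 these were PRE5 (0.530 and 0.263) and IBH1 (0.650 and 0.332), an activator and a repressor of cell elongation. Ethylene genes were lower in 4 of 19 with 0 higher and a median of -0.23. These were ACS8 (0.737 and 0.261, log2 difference -1.28) and ACS5 (0.831 and 0.386, -0.98), which make the ethylene precursor, ERF1, a response factor (0.676 and 0.396, -0.68), and HLS1, which maintains the apical hook (1.03 and 0.638, -0.64). The receptors and the transcription factors EIN3 and EIL1 were between -0.39 and 0.05. Auxin genes were lower in 4 of 26 and higher in 1. YUC2 (0.455 and 0.179, -1.07) and TAR2 (0.220 and 0.559, 1.11), which both act in auxin synthesis, differed in opposite directions.

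Seed and abscisic acid genes had the lowest list median, -0.50, with 5 lower and 1 higher of 11 with a peak, out of 29 listed. SOM, a repressor of germination, had 1.13 in wt D against 0.389 in pifq D (-1.38). NCED6, of abscisic acid synthesis, had 0.996 and 0.312 (-1.48), and ABI4, of abscisic acid response, had 0.537 and 0.198 (-1.18). DOG1, a gene of seed dormancy, had the reverse, 0.0998 and 0.367 (1.35). Cell wall genes were higher in 3 and lower in 1 of 25, the lower one being XTR7. Among the higher ones, XTH6 was at the lowest value in wt D (0.00668) and had 0.320 in pifq D. Cell division genes had 2 of 12 higher and a median of 0.33, with CYCD3;1, a cyclin of cell division, at 0.316 and 0.647 (0.89) and ANT, an organ growth factor, at 0.247 and 0.480 (0.79). Gibberellin and brassinosteroid genes had 2 higher and 1 lower of 31, and cytokinin genes 0 higher and 2 lower of 12. Histone acetyltransferase and deacetylase genes had 1 of 24 higher, HDA14 (0.443 and 0.717), and 0 lower. Iron genes had 1 of 12 higher (YSL1), and heat, touch and wounding genes 1 higher and 1 lower of 17, with 15 members below 0 and a median of -0.23. Reference genes had 0 of 15 higher or lower and a median of -0.06.

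Markers of some cell types differed as well. Root markers were lower in 4 of 9 members with a peak, out of 23 listed, with a median of -0.35, and their summed signal was 6.52 in wt D against 4.88 in pifq D, with a range of 4.63 to 6.52 over the 6 groups. Among the lower members were TIP2;3 (0.613 and 0.203), PHT1;1 (0.491 and 0.210) and SHR (0.750 and 0.462). NRT1.1 (0.870 and 0.666) and AKT1 (0.746 and 0.617) differed less. GL2 (1.02 and 0.963), PYK10 (0.479 and 0.466) and SCR (1.00 and 1.04) were nearly equal, so the whole root list did not share the difference. Stomatal lineage markers were higher in 4 of 9, out of 17 listed, with a median of 0.30 and sums of 4.74 in wt D against 5.84 in pifq D, in a range of 4.74 to 6.94. The higher members were SCRM2 (0.398 and 0.785), STOMAGEN (0.309 and 0.621), SPCH (0.266 and 0.495) and TMM (0.499 and 0.793). SCRM (0.498 and 0.631) and MYB60 (0.540 and 0.580) differed less. FLP (0.954 and 0.751), KAT1 (0.574 and 0.505) and OST1 (0.697 and 0.684) had less signal in pifq D, so the list did not differ as a whole. Vasculature and epidermis markers each had 0 higher and 1 lower, of 7 and 9, and shoot meristem markers 0 of 3 in either direction. Of all these markers 0 were at the lowest value of either column. Their part in the differences of the other lists was not tested.

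Among genes whose higher group had at least the median signal of all values, the largest differences lay partly outside these lists. Some genes of lower signal, such as BBX25 and BBX23, differed by more than many of these. QQS, a gene that affects starch and protein content, was at the lowest value of all 3 wt columns (0.000846 to 0.00102) and had 0.854, 0.800 and 0.777 in pifq D, R1h and WLc. Its genotype difference was therefore present in every light condition. AT3G02390 had 0.0547 in wt D against 0.742 in pifq D (2.69), AT2G44830 had 0.215 and 0.799 (1.60), and AT3G53190 had 0.302 and 0.897 (1.37). On the lower side, ASY3, a gene of meiotic chromosome axes, had 0.773 and 0.0362 (-2.97), with a peak centred 4274.5 bp downstream of the start of that gene. SBP3, a selenium-binding protein gene, had 0.992 and 0.140 (-2.33), FLP1, related to a flowering-promoting factor, had 0.915 and 0.157 (-2.11), and LATE, a zinc finger gene, had 0.737 and 0.143 (-1.91). AT5G61530 (1.89), AT1G12855 (1.61), AT3G14760 (1.56), CYP96A12, a cytochrome P450 gene (1.39), and the peak shared by AT2G34610 and AT2G34620 (1.59) were the others of this signal level among the 12 largest on the higher side, beside LHCB3. On the lower side these were AT2G25770 (-1.99) and the peak shared by AT5G49130 and AT5G49138 (-1.84). AT3G02390, AT2G44830, AT3G53190, ASY3, SBP3, FLP1 and LATE had a smaller difference in WLc than in D, between -0.60 for ASY3 and 0.90 for LATE.

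**Figure D4:**
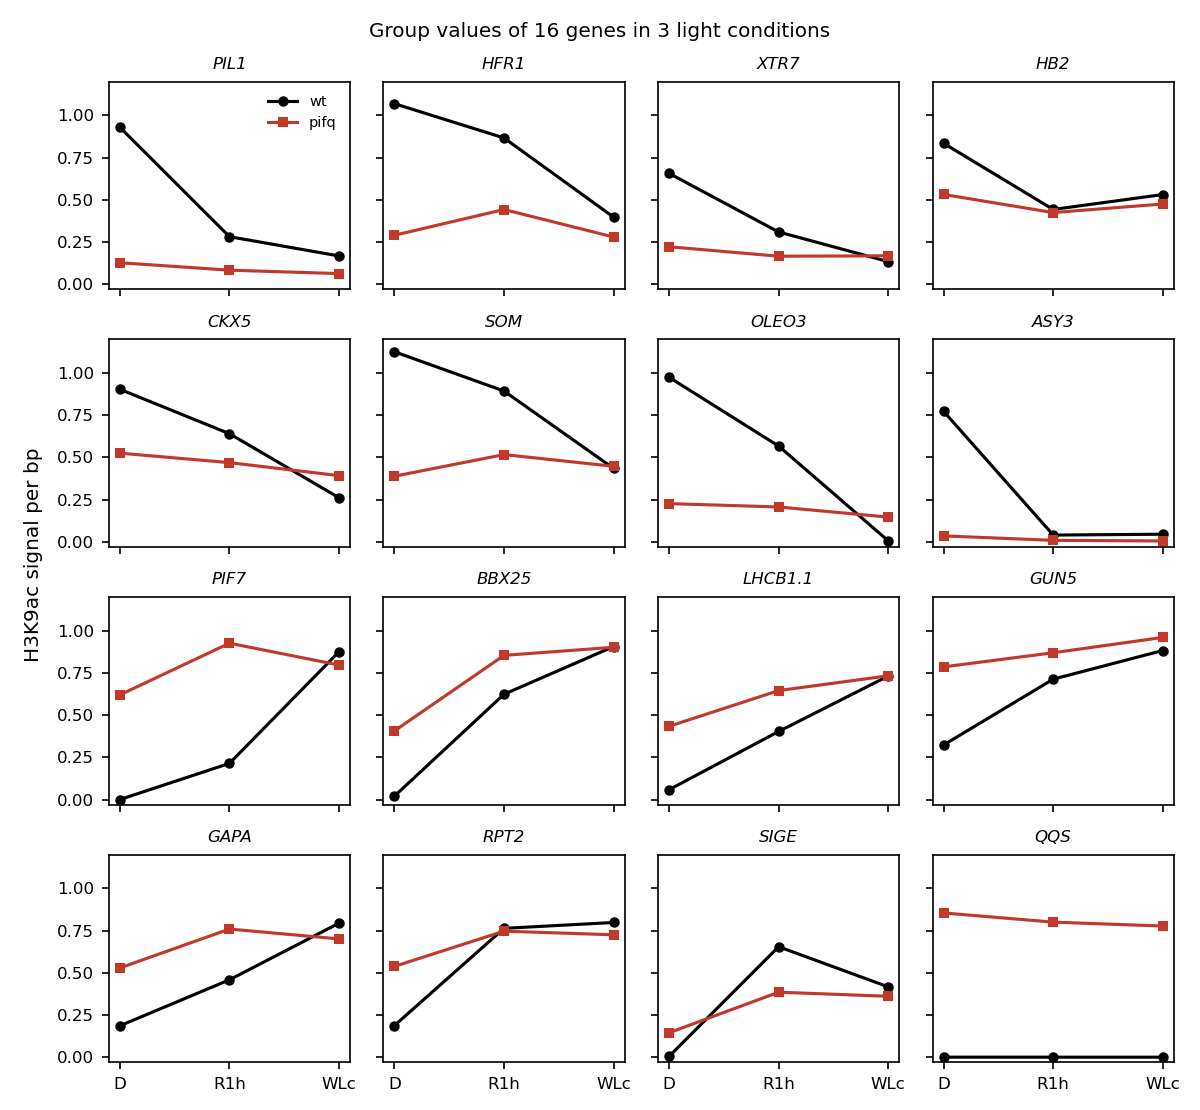
H3K9ac signal per bp (y axis) in D, R1h and WLc (x axis) for wt (black circles) and pifq (red squares), 1 pooled value per group, for 8 genes lower in pifq D (upper panels) and 8 higher (lower panels). The genotypes are further apart in D than in WLc at each gene shown, though at QQS they stay far apart in all 3 conditions.

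Neighbouring peaks differed together. For peaks less than 500 bp apart, the log2 differences of a peak and the next had a Pearson's r of 0.54 over 1314 pairs, which went down to 0.35 at 500 to 1000 bp, 0.24 at 1000 to 2000 bp and 0.05 beyond 10000 bp. These are correlations across peaks, which share the same pooled libraries and are not independent. The pairs include neighbouring peaks assigned to the same gene. Among pairs under 500 bp apart, the next peak was also higher in 39.1% of 133 cases and also lower in 36.5% of 85. The PIL1 and ASY3 peaks are neighbours at a longer distance. They lie at chr2:19295949-19297850 and chr2:19299643-19300350, 1793 bp apart, and the PIL1 upstream stretch printed above, with its 2 G-boxes, falls in the gap between them. HFR1 (chr1:465851-467766) has a neighbour in GL22, a germin-like gene, with 0.713 in wt D against 0.219 in pifq D (-1.43). On the higher side, COL2 (0.125 and 0.578) lies 395 bp from AT3G02390, and LHCB1.2 (0.122 and 0.371) lies 1549 bp from LHCB1.1. Of 4051 pairs of neighbours under 2000 bp apart that had no assigned gene in common, 31 were both lower and 52 were both higher. Among all single peaks 5.29% were lower and 5.84% were higher.

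Peaks that differed were more often short. Of 794 peaks of at most 250 bp, 20.2% were higher and 17.4% were lower, against 4.58% and 3.91% of 7753 peaks of 500 to 1000 bp. Several genes named above rested on such short peaks. They included SBP3 (101 bp), AT5G61530 (109 bp), NCED6 and ABI4 (151 bp each), AT3G02390 (155 bp), UPB1 (157 bp), FLP1 and ACS8 (175 bp each). Others did not, such as PIL1 (1901 bp) and QQS (1051 bp). Short peaks had lower signal, with a wt D median of 0.508 compared with 0.730, and its part in these shares was not tested. Peaks centred more than 2000 bp downstream of the start of their gene were higher in 18.5% and lower in 12.0% of 811, and those at 250 to 500 bp in 4.42% and 3.78% of 7823. The distant peaks also had lower signal, with a wt D median of 0.485 compared with 0.715, and its part was not tested. The 5 chromosomes were alike, with 5.4% to 6.32% of peaks higher and 4.77% to 5.66% lower. Of 1616 genes with several peaks, 46 had all peaks higher, 38 had all lower, and 6 had peaks in both directions. PIF3 and RHD2, a gene of root hair growth, were among those with all peaks lower. KT2/3, a potassium channel gene, was among the 6, with 0.676 in wt D against 0.285 in pifq D at a peak far into the gene and 0.151 and 0.339 nearer its start.

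Much of the dark difference between genotypes was also present after 1 h of red light, and little of it in continuous white light. Across peaks, the log2 difference in D and that in R1h, which share no column, had a Pearson's r of 0.79 (17319 peaks), and that in D and that in WLc had -0.17. Of the 1011 peaks higher in D, 424 (41.9%) were also higher in R1h (3.04% of all peaks), and 30 (2.97%) were also higher in WLc (1.37% of all). Of the 916 peaks lower in D, 586 (64.0%) were also lower in R1h (4.72% of all), and 20 (2.18%) in WLc (0.364% of all). The reverse difference in WLc, with pifq higher, was found at 108 (11.8%) of the peaks lower in D, while 9 of the peaks higher in D were lower in WLc.

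The group levels showed how the genotypes came together. At the peaks higher in D, the wt median was 0.219 in D, 0.346 in R1h and 0.621 in WLc, while that of pifq was 0.499, 0.548 and 0.601. At the peaks lower in D, the wt median was 0.650, 0.579 and 0.289, and that of pifq was 0.314, 0.320 and 0.325. The D values chose these peaks, so only the R1h and WLc levels carry information beyond the choice. At the lower peaks pifq was nearly level over the 3 light conditions, and wt was still close to its dark level after 1 h. The photosynthesis lists had the same order, with antenna medians of 0.84 in D, 0.48 in R1h and 0.03 in WLc, and the PIF-induced PIF-DTGs had -0.41, -0.21 and -0.02. In R1h, 8 of 21 antenna genes were higher (2.35% of all genes) and 35 of 156 PIF-induced PIF-DTGs were lower (3.58% of all). In WLc, 0 antenna genes were higher (1.02% of all) and 5 PIF-induced PIF-DTGs were lower (0.187% of all).

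**Figure D5:**
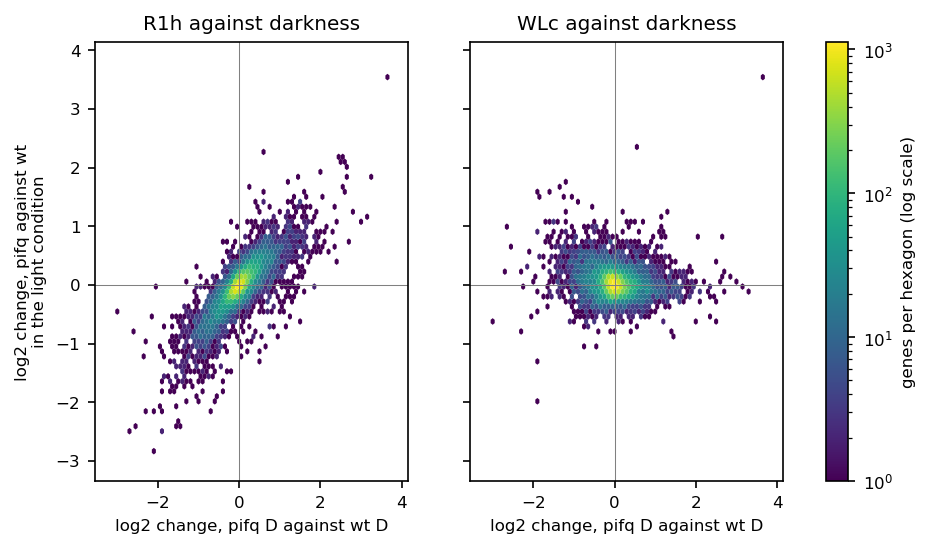
Log2 difference in H3K9ac between pifq and wt in R1h (left, y axis) and WLc (right, y axis) against that in D (x axis), for 17672 genes by their strongest peak. Colour gives the number of genes per hexagon on a log scale. The cloud is drawn out along the diagonal on the left (r = 0.80) and lies flat on the right (r = -0.18).

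A few peaks differed in the same direction in all 3 light conditions, 10 higher and 11 lower in pifq. The higher ones were led by QQS, and included peaks of ACT12, an actin gene, RPP1, a resistance gene, NAKR2 and ABCG8, a transporter gene. The lower ones were both PIF3 peaks, the PIF1 peak, PIL1, a pair of the MUM2 peaks, NUDT8, GLYI4, AT1G34440 and a peak each of AT3G54510 and AT3G56210. MUM2, a galactosidase gene of seed coat mucilage, had log2 differences of -0.65, -0.73 and -0.83 in D, R1h and WLc at the longer of these peaks, and PIL1 had -2.33, -1.19 and -0.83.

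Promoter letters were compared in the 500 bases upstream of the gene start. A G-box was present in 10.3% of 17580 promoters of the table, in 10.2% of the 798 genes that were higher and in 11.0% of the 762 that were lower. A PBE-box, on either strand, was present in 20.8% of all, 21.6% of the higher and 29.1% of the lower genes. Without the PIF-DTGs, the lower genes held a PBE-box in 28.7% of 705 promoters. Lower genes also had longer upstream stretches before the next gene, with a median of 1592 bases against 921 for genes of the table. These stretches were of 90 to 2000 bases, and the part of their length in the PBE-box share was not tested. Among PIF-induced PIF-DTGs that were lower, 26.4% of 53 had a G-box and 34.0% a PBE-box, and among PIF-repressed PIF-DTGs that were higher the shares were 13.0% and 39.1% of 23. PIF-DTGs were selected for PIF binding, so their shares are no separate result.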

How the data were processed

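H3K9ac ChIP-seq of whole seedlings was analysed from 1 deposited table. The authors used Bowtie2 for alignment, BayesPeak for peak finding and DiffBind for quantification, and gave each peak the gene with the nearest start. Versions and the way in which 3 libraries became 1 value are not given in the sources used here. The deposited values are signal per bp of peak, pooled per group. The methods name TAIR9 and the submitters' notes TAIR10, and all peaks lay within the chromosomes of TAIR10.1, which was used for upstream letters. Whether peak starts count from 0 or 1 is not stated.

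Log2 ratios were computed after a pseudocount of 0.0717, which is 0.1 of the median of all values, and no test was run. The script was checked on artificial data with known answers. The changed peaks in that check had wt D signal of at least the median of all values, so it did not cover changes at low signal. A gene was represented by its peak of highest mean signal. Genes were named by rule: the 12 with the largest difference in each direction among those with at least the overall median signal in 1 of the groups, the PIF loci and the genes selected by the study, 8 PIF-DTGs per class and direction, up to 4 members per list, and neighbouring or multiple peaks. Other genes were named after their values were seen: ABI4, ALC, SPT, FHL, PHYB, HY5, COP1, CRY1, CRY2, DET1, EIN3, EIL1, LHCB1.2, LHCB1.3, LHCB4.3, LHCB7, the cell type markers and the peaks that differed in all light conditions. Members and lists were chosen with earlier results of these data known. The lists number 23, with 535 genes, and 443 of these had a peak. Input libraries have no column in the table and were not used here. The value of 1 root marker is not reported here.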

Additional observations from a re-analysis of the deposited data

Results flagged for a closer look

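At 9 of the genes named in the text the genotypes differed by at least 1.5-fold in opposite directions in darkness and in a light condition, a contrast that was not tested because each group has 1 pooled value. At 7 of them pifq was lower in D and higher in WLc. LATE had a log2 difference (pifq against wt) of -1.91 in D and 0.90 in WLc, and OLEO3 had -1.81 and 1.47, with WLc signal of 0.00718 in wt and 0.147 in pifq. ACS8 had -1.28 in D and 1.48 in WLc, NCED6 had -1.48 and 1.099, and ABI4 had -1.18 and 1.76. RHD2 had -1.67 in D and 0.72 in WLc, and the root marker TIP2;3 had -1.32 and 0.61. The others were higher in D and lower in R1h. SIGE had 1.49 in D and -0.67 in R1h, where signal was 0.654 in wt and 0.385 in pifq. F3H, a flavonoid gene, had 0.73 in D and -0.68 in R1h.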

How the results depend on the processing

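No paired analysis was possible because the table has 1 pooled value per group, and for the same reason no library could be left out. Of 124 alternative values, 92 stayed close (counts within 1.5 times, medians within 0.1) and 32 moved. Most of the values are counts, which cannot change sign, and 0 of the medians did. Scaling to equal medians, by TMM factors or to the reference genes moved no count or median that far, and shifted the median of all peaks to at most 0.03. That median was already -0.01 as deposited, and equal medians and TMM factors take most peaks as unchanged. The reference genes are only 15. These settings therefore cannot show whether the deposited scaling had removed a difference shared by most peaks. A pseudocount of 0.5 of the median gave 329 higher and 337 lower peaks, 0 and 27 PIF-induced PIF-DTGs with a median of -0.28, 9 and 1 PIF-repressed PIF-DTGs, and 44 list members at the limit in place of 88. A pseudocount of 1, above most signals, gave 15 and 30 peaks, 0 and 8 PIF-induced members (median -0.17), 0 and 0 PIF-repressed members and 7 list members. Without the 25% of peaks of lowest mean signal there were 308 and 187 peaks, 0 and 10 PIF-induced members (median -0.25), 7 and 1 PIF-repressed members and 42 list members, with fewer genes counted. At 2-fold there were 385 and 266 peaks, 19 PIF-induced members lower, 8 and 0 PIF-repressed members and 40 list members. Quantile scaling reversed which direction was more frequent, with 722 higher and 931 lower peaks. The single PIF-induced member that was higher was lost (0) with quantile scaling, and there were 2 without peaks entered for several genes, an alternative chosen after seeing the data, like leaving out peaks of at most 250 bp or counting every entry. Over all alternatives except the limit of 2-fold, the number of higher genes ranged from 0 to 13 in the antenna list (median 0.29 to 1.06). It ranged from 0 to 17 in the photosystem list and 0 to 10 in the Calvin-Benson list. In each list 0 were lower throughout, and the 0 higher came from the pseudocount of 1. The missing replicates and unknown depth limit every statement, most of all at low signal.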
